A study of Mus musculus with 4 samples.

Results

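The genes described here are 10 genes of glucose uptake, glycolysis, lactate handling and pyruvate use that are known targets of the hypoxia-inducible factors (HIFs): Slc2a1, Hk2, Pfkp, Pfkfb3, Aldoa, Pgk1, Eno1, Ldha, Slc16a3 and Pdk1. Their chromatin was followed through every accessible region (peak) that overlaps the gene or the 5000 bp on either side of it in the GENCODE M21 annotation. Of 128055 peaks in all, 56 met this rule. A set of 15 lay within 1000 bp of a coding transcript start of the gene itself and are called promoter peaks, 1 lay at the promoter of a neighbouring gene, and 40 are called other peaks. The assay was ATAC-seq, which marks open chromatin by the cuts of a transposase that carries adapters. The cells were mesenchymal stem cells (MSCs) grown from the hind limb bones of wild-type C57BL/6N mice aged 3 to 5 months. All cells were first grown at 2% O2, sorted as CD45-/Ter-119-/Sca-1+/CD140a+ cells and only then parted into the 2 groups. The hypoxia group (2 libraries) went back to 2% O2 and the normoxia group (2 libraries) was shifted to 21% O2 for a week, both at 5% CO2, and no drug or transgene was used in any of these libraries.

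HIFs are transcription factors whose alpha subunits are hydroxylated and degraded when oxygen is plentiful and accumulate when it is scarce. They bind the hypoxia response element, whose core reads ACGTG or GCGTG, and raise the transcription of the genes that carry glucose into the cell and turn it into lactate, while PDK1 holds pyruvate back from the mitochondria. MSCs live in a bone niche that is low in oxygen and are known for their reliance on glycolysis. Accessibility is not transcription, and no RNA or HIF binding was measured in these libraries.

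The deposited value of a peak is its reads per 10000000 library reads, not divided by peak width. Library totals ran from 26680936 to 29965523 reads, and the nuclear peaks together held 49.2 and 53.2% of the reads in hypoxia against 31.0 and 35.2% in normoxia. The mitochondrial genome's peaks held 7.77 and 9.13% in hypoxia, against 1.497 and 2.34% in normoxia. The part of these shares in the results was not tested. Values as deposited were lower in normoxia at most peaks (median log2 fold change of all peaks -0.44), and fold changes are given after scaling with relative log expression (RLE) factors, which put that median at -0.0040. Fold changes divide normoxia by hypoxia and are log2 differences of value + 1, so a negative one means less accessible in normoxia than in hypoxia relative to the typical peak. A call means an FDR under 0.01 in limma over all peaks, and the FDRs below are from that test. All 7 MSC marker genes had a promoter peak, with summed values of 1040 and 1054 in hypoxia and 569 and 619 in normoxia. Of their 11 promoter peaks, 2 were called lower (18.2%, beside 16.7% of all promoter peaks) and 0 higher. Those called lower were 1 peak each of Twist1 and of Ly6a, which encodes Sca-1. The other Ly6a promoter peaks were not called. Of the blood markers, Ptprc, Cd3e and Itgam had no promoter peak, and the peaks of Spi1 and Adgre1 summed to 10.9 to 18.0 in the 4 libraries. Gata1 of 3 red cell markers and Cdh5 of 3 endothelial markers had no promoter peak, and the remaining peaks of these lists summed to 60.3 to 104 and to 42.0 to 69.4.

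Stretches from the promoters and peaks that the results turn on are printed to show the response element cores they hold. Sequences are from RefSeq and the reference genome of build GRCm38 (mm10), 5′ to 3′ on the strand of the gene, and capitals mark ACGTG and GCGTG on either strand (CACGT and CACGC when read on the printed strand). Matches that overlap were each counted, so CACGTG, which is also the E-box bound by other factors, counts once on each strand. The stretches are Pgk1 chrX:106186912-106187011 (+), Ldha chr7:46845690-46845789 (+), Pfkfb3 chr2:11502125-11502224 (-), Pfkp chr13:6648815-6648914 (-), Slc16a3 chr11:120948949-120949048 (+) and Aldoa chr7:126799328-126799427 (-), each upstream of a RefSeq start, then an intronic Pfkfb3 peak, chr2:11535509-11535658 (-), and a peak downstream of Eno1, chr4:150255022-150255171 (+).
Pgk1: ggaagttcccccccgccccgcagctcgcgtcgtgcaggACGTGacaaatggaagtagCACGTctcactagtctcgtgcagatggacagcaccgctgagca
Ldha: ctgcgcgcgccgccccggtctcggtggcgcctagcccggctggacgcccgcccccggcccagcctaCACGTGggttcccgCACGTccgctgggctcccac
Pfkfb3: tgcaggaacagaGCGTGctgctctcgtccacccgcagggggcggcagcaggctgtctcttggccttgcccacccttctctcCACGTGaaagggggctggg
Pfkp: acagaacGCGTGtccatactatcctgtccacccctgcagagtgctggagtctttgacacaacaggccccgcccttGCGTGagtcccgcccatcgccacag
Slc16a3: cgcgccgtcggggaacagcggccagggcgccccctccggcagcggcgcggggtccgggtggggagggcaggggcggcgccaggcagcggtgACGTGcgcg
Aldoa: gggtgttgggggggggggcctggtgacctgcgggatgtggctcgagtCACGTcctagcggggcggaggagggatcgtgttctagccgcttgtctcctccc
Pfkfb3 intronic peak: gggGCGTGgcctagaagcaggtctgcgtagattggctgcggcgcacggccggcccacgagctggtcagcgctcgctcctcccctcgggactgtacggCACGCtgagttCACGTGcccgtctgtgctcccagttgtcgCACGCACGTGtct
Eno1 downstream peak: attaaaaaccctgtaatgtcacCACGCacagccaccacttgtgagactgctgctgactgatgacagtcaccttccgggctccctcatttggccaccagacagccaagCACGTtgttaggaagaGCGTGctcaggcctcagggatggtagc

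All 10 genes matched the RefSeq promoter table, with 17 windows reaching from 250 bases before to 50 after a start, and all 10 held at least 1 core in a window. At least 2 cores in a window were found in 90% of the 10 genes. Over 27025 RefSeq genes the shares were 46.7% with a core and 22.9% with at least 2. Counted by window rather than by gene, 88.2% of the 17 windows held a core and 70.6% at least 2. Windows whose start lies in a peak of these cells held a core in 59.3% and at least 2 in 31.0% of 17272 cases. The Ldha window around the start at 46845804 held the most, 7 cores, and 5 of them were upstream of that start. A match of these letters is a description and not a binding site. Since the genes are known HIF targets, cores in their promoters are no independent finding.

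Of the 56 peaks, 10 were called lower in normoxia and 1 higher, against 4.57% and 1.77% of all peaks. At the promoters, accessibility was lower in normoxia in 7 of 15 peaks and higher in none (limma FDR under 0.01), against 16.7% lower and 0.442% higher among all 17661 promoter peaks. These 7 belonged to Slc2a1, Pfkp (2 peaks), Pfkfb3 (2 peaks), Pgk1 and Ldha, and by unadjusted p under 0.05 the count was 13 lower and 0 higher, against 44.1% and 3.88% of all promoter peaks. The median log2 fold change of the 15 was -0.48, beside -0.27 over all promoter peaks. In 15 of 15 promoter peaks each normoxia library was under each hypoxia library as deposited, where 86.1% of all promoter peaks did so, and again after RLE scaling, where 60.3% did so. The authors' peak model assigned 1 of these 15, a narrow Slc16a3 peak, to hypoxia alone, so its direction is no independent result. That peak is also among the 13 lower by unadjusted p. Of all promoter peaks, 6.64% were assigned to hypoxia alone. The members' promoter peaks are strong, with a median deposited value of 168 beside 62.6 for all promoter peaks. Among 500 promoter peaks nearest in mean value to the strongest promoter peak of each gene, a median of 43.5% were called lower, beside 5 of the 10 strongest promoter peaks themselves. The medians of these equals ran from -0.42 to -0.24. Set against peaks of equal value, then, the 10 strongest promoter peaks differed by a median of -0.05 in log2 fold change, with 6 below and 4 above the median of their equals. With cyclic loess, which removes the trend with value, 0 of 15 promoter peaks were called (background 2.05% lower and 1.26% higher), and their median was -0.16. As deposited, 15 of 15 were called lower, against 60.6% of all promoter peaks. Without either one of the hypoxia libraries 0 of all 128055 peaks were called by limma, with 24119 and 24294 at an unadjusted p under 0.05, so that step says nothing about single calls. The direction for Slc2a1, Hk2, Aldoa and Eno1 flips with cyclic loess, and for Hk2, Aldoa and Eno1 also with quantile normalization.

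**Figure D1:**
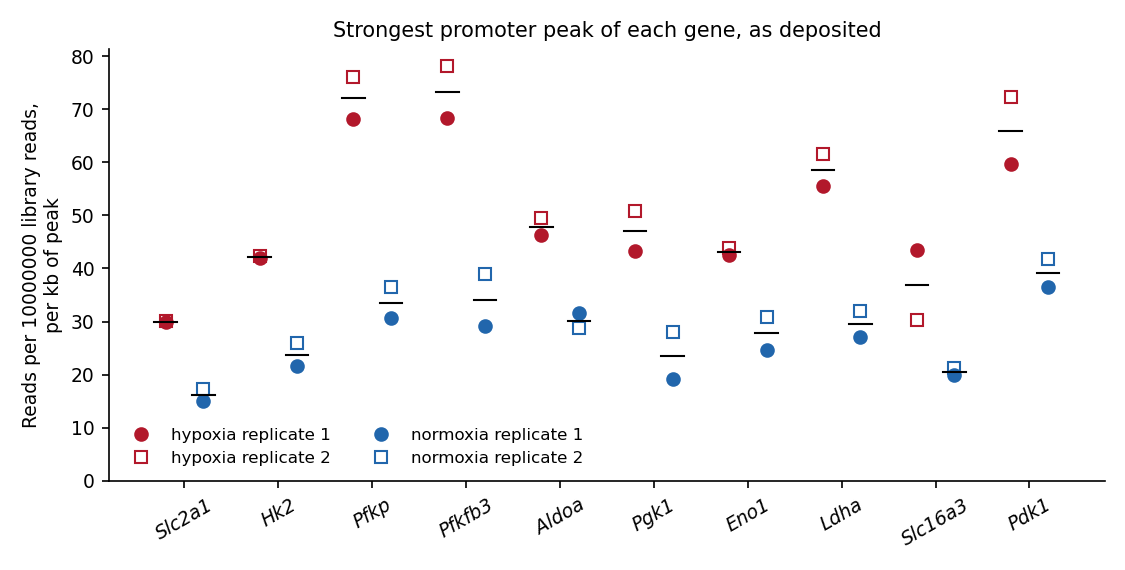
Deposited value per kb of peak (vertical axis, reads per 10000000 library reads) of the strongest promoter peak of each gene, with points for the 4 libraries and black lines for group means. In all 10 genes both blue normoxia points lie below both red hypoxia points.

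**Figure D2:**
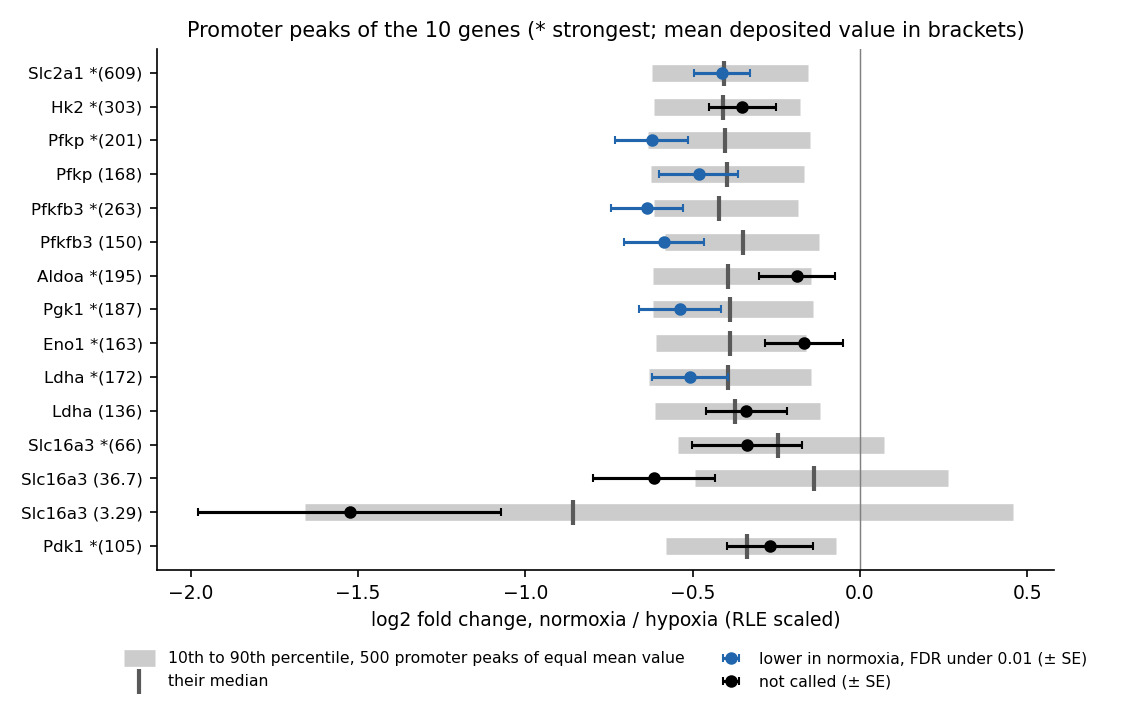
Log2 fold change of normoxia over hypoxia after RLE scaling (points, ± SE) for the 15 promoter peaks, over the 10th to 90th percentile (grey bars) and median (ticks) of 500 promoter peaks of equal mean value. Most points fall inside the grey bars, with both Pfkfb3 peaks and a weaker Slc16a3 peak at or past the left end of theirs and Aldoa and Eno1 towards the right end.

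Slc2a1 encodes GLUT1, the transporter that brings glucose into the cell. Its promoter peak, chr4:119105501-119131900, had values of 787 and 796 in hypoxia and 399 and 456 in normoxia. Both normoxia libraries were well below the hypoxia pair, and the log2 fold change was -0.41 (SE 0.08, limma FDR = 0.00114), though 0.12 and not called with cyclic loess. The peak is 26400 bp wide and covers most of the gene, so its value is not one of the start site alone, and at a mean value of 30.0 per kb in hypoxia it was the least dense of the strongest promoter peaks. The 500 promoter peaks nearest in value, which ranged from 314 to 1153, had a median of -0.41, and 49.0% of them fell below the Slc2a1 peak. Set against promoter peaks of equal value per kb, the Slc2a1 peak differed from their median by -0.16, and 22.8% fell lower. The strongest other peak, chr4:119137601-119143900 over the end of the gene, held 82.1 and 71.7 in hypoxia and 61.1 and 65.1 in normoxia. Its log2 fold change was 0.19 (SE 0.14, FDR = 0.40), and -0.28 as deposited.

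Hk2 encodes hexokinase 2, which traps glucose in the cell as glucose 6-phosphate. Its promoter peak, chr6:82766401-82775600, had 385 and 389 in hypoxia, against 198 and 239 in normoxia. The groups did not overlap, but the log2 fold change of -0.35 (SE 0.10) did not pass the threshold (FDR = 0.0152), and was 0.077 with cyclic loess. It passed without normoxia replicate 2 (-0.42, FDR = 0.000229). A broad peak inside the gene, chr6:82745901-82761700, held more reads than the promoter peak, with 565 and 657 in hypoxia and 317 and 367 in normoxia. It was called lower at a similar size (log2 fold change -0.36, SE 0.09, FDR = 0.00603), though 0.14 and not called with cyclic loess. Per kb the hypoxia means were 38.7 in this peak and 42.1 at the promoter, as the map of the loci shows. The other 9 Hk2 peaks were weaker and not called.

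Phosphofructokinase commits sugar to glycolysis, Pfkp encodes its platelet-type subunit, and Pfkfb3 makes the fructose 2,6-bisphosphate that activates it. These genes had the most negative fold changes among the strongest promoter peaks. The Pfkp peak at the gene start, chr13:6645801-6649600, held 259 and 289 in hypoxia and 117 and 138 in normoxia. That is a clear separation of the groups and a log2 fold change of -0.62 (SE 0.11, FDR = 0.000280), with 10.4% of promoter peaks of equal value falling lower still. A broader internal promoter peak, chr13:6630601-6640700, had 213 and 230.2 against 98.2 and 131, and was also called lower (log2 fold change -0.48, SE 0.12, FDR = 0.00563), though not without normoxia replicate 1 (-0.33, FDR = 0.0389). An exonic peak farther into the gene, chr13:6613501-6615100, had 134 and 136 in hypoxia and 54.0 and 69.7 in normoxia. It too was called lower, at -0.65 (SE 0.13, FDR = 0.00123), and per kb its hypoxia mean was 84.4, beside 72.0 at the gene start.

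Pfkfb3 had 13 peaks, the most of the 10 genes. Its strongest promoter peak, chr2:11499901-11504800, serves internal starts and contains the printed stretch with 3 cores. It held 335 and 383 in hypoxia and 143 and 191 in normoxia, and had a log2 fold change of -0.64 (SE 0.11, FDR = 0.000196). Only 8.0% of promoter peaks of equal value fell lower. The peak at the upstream start, chr2:11552301-11554800, moved alike, from 188 and 217 to 85.8 and 108 (log2 fold change -0.59, SE 0.12, FDR = 0.00120). The intronic peak chr2:11534701-11536400 held 170 and 171 in hypoxia and 76.8 and 93.4 in normoxia. It was called lower at -0.53 (SE 0.12, FDR = 0.00383), and missed the threshold without normoxia replicate 1 (-0.44, FDR = 0.0118). Per kb it was the most open of the locus, with a hypoxia mean of 100.4. It held 8 cores in 1700 bp, that is 4.71 per kb, beside a median of 1.18 in other peaks of its width, of which 98.8% held fewer. The exonic Pfkp peak called lower held 0.625 cores per kb, beside a median of 1.25, and 25.4% held fewer. The broad Hk2 peak called lower held 1.58 per kb, beside a median of 1.38. Within each library the value of the intronic Pfkfb3 peak stood at 0.507 and 0.448 times that of the strongest promoter peak in hypoxia. In normoxia it stood at 0.538 and 0.490 times. A library's scaling factor cancels in these ratios, and their groups overlap.

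**Figure D3:**
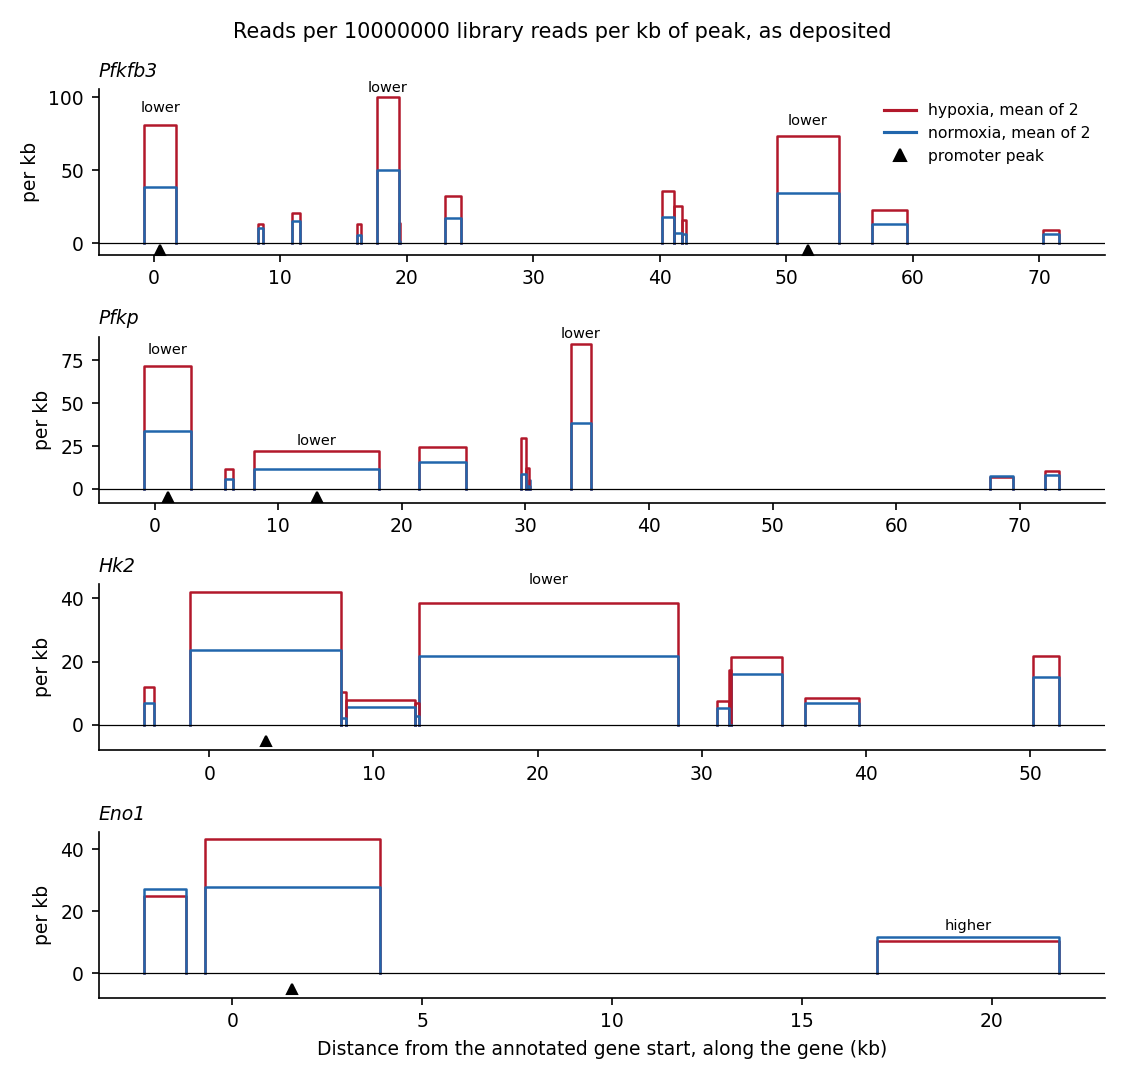
Mean deposited value per kb (vertical axes, reads per 10000000 library reads) of each peak, drawn at its width, against the distance from the annotated gene start in kb, for Pfkfb3, Pfkp, Hk2 and Eno1, with hypoxia in red, normoxia in blue, triangles under promoter peaks and the call written over called peaks. Called peaks of Pfkfb3 and Pfkp lie at promoters and inside the genes, and in the called Eno1 peak past the gene's end blue lies above red.

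Aldolase A, encoded by Aldoa, splits fructose 1,6-bisphosphate. Its promoter peak, chr7:126795801-126800800, which also reaches within 1000 bp of a start of Fam57b, had 232 and 247 in hypoxia, against 158 and 143 in normoxia. The groups did not overlap, yet the log2 fold change of -0.19 (SE 0.11, FDR = 0.27) was not called and was 0.17 with cyclic loess, and 84.2% of promoter peaks of equal value fell lower. The peak at the promoter of the neighbour Ppp4c, chr7:126787501-126793800, was alike, with 136 and 133 against 86.2 and 84.1 and a log2 fold change of -0.18 (SE 0.13, FDR = 0.36).

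Phosphoglycerate kinase 1, encoded by Pgk1, makes the first ATP of the pathway. Its promoter peak, chrX:106185001-106190300, held 229 and 269 in hypoxia, against 101 and 148 in normoxia. The log2 fold change was -0.54 (SE 0.12, FDR = 0.00313), and 21.0% of promoter peaks of equal value fell lower. The normoxia libraries differed from each other, and without normoxia replicate 1 the value was -0.32 and no longer called (FDR = 0.0359). The strongest of its other peaks, chrX:106208101-106208800 past the gene's end, held 7.08 and 8.50 against 4.87 and 7.68, which overlap (log2 fold change 0.12, SE 0.33, FDR = 0.85, and -0.30 as deposited).

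Enolase 1, encoded by Eno1, makes phosphoenolpyruvate. Its promoter peak, chr4:150236001-150240600, had the smallest change of the 10, with 195 and 202 in hypoxia and 113 and 142 in normoxia. Its log2 fold change was -0.17 (SE 0.12, FDR = 0.35), or 0.17 with cyclic loess, and 89.6% of promoter peaks of equal value fell lower. Eno1 also held the single member peak that was called higher in normoxia, against a background of 1.98% of other peaks. This peak, chr4:150253701-150258500, starts past the end of the gene and had 52.0 and 48.3 in hypoxia and 55.1 and 57.1 in normoxia. As deposited the groups were separated by only a few units (log2 fold change 0.16, not called). Relative to the typical peak the log2 fold change was 0.63 (SE 0.15, FDR = 0.00582), and with cyclic loess it was 0.77 (FDR = 0.00147). Within a library the scaling factor cancels in its ratio to the Eno1 promoter peak. This ratio rose from 0.266 and 0.239 in the hypoxia libraries to 0.487 and 0.401 in the normoxia libraries. A trend with value does not cancel. Other peaks equal in value to the downstream peak had a median log2 fold change of -0.09, and 99.2% of them fell below it. Promoter peaks equal in value to the Eno1 promoter peak had a median of -0.39. Without normoxia replicate 1 the downstream peak was not called (FDR = 0.0283). Reads of Eno1 exons can also be placed in the near-identical retrogene copy Eno1b, and how the alignment divided them was not tested.

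Lactate dehydrogenase A, encoded by Ldha, turns pyruvate into lactate. The gene had a pair of promoter peaks. The stronger one, chr7:46837601-46841500, touches only the most upstream annotated start and holds 0 cores. It had 217 and 239.7 in hypoxia and 105 and 125 in normoxia, and was called lower at -0.51 (SE 0.11, FDR = 0.00256). The other, chr7:46844501-46847800, covers both RefSeq starts and holds 20 cores, or 6.06 per kb, beside a median of 2.12 in promoter peaks of its width. It had 171 and 175 in hypoxia and 87.0 and 110.5 in normoxia, and its log2 fold change of -0.34 (SE 0.12, FDR = 0.0547) did not pass the threshold, except without normoxia replicate 2 (-0.44, FDR = 0.00779). With the strongest peak that holds a RefSeq start taken for each gene, an alternative added after seeing the data, 4 of 10 rather than 5 of 10 were called lower. The peak downstream of the gene, chr7:46855701-46859800, had 32.2 and 34.0 against 25.5 and 21.7 and a log2 fold change of -0.01 (SE 0.20, FDR = 0.98).

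Slc16a3 encodes MCT4, the transporter through which glycolytic cells release lactate. It had 3 promoter peaks next to each other. The strongest, chr11:120950301-120952600, held 99.8 and 69.7 in hypoxia, against 45.7 and 48.7 in normoxia. The hypoxia pair was widely spread. The log2 fold change was -0.34 (SE 0.16, FDR = 0.16), and -0.65 or -0.03 when hypoxia replicate 2 or 1 is left out. The peak at the RefSeq start, chr11:120947901-120950100, which contains the printed stretch, was tighter, with 50.2 and 50.0 against 24.7 and 21.7. Its log2 fold change was -0.62 (SE 0.18, FDR = 0.0201), and only 5.0% of promoter peaks of equal value fell lower. The narrow peak between them, chr11:120950101-120950300, held 5.31 and 6.12 in hypoxia and 0.75 and 1.001 in normoxia, which is 15 and 18 reads against 2 and 3 (log2 fold change -1.53, SE 0.45, FDR = 0.0210). The authors' peak model assigned this narrow peak to hypoxia alone, so its direction is no independent result. A peak over the end of the gene, chr11:120957201-120964600, had 111 and 107 against 84.3 and 80.8 (log2 fold change 0.07, SE 0.13, FDR = 0.76).

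PDK1, a kinase that switches off pyruvate dehydrogenase and so limits the entry of pyruvate into the citrate cycle, is encoded by Pdk1. Its promoter peak, chr2:71872401-71874400, was the richest in cores per kb of the promoter peaks, with 15 cores in 2000 bp. It held 119 and 144 in hypoxia, against 73.1 and 83.4 in normoxia. The groups did not overlap, but the log2 fold change of -0.27 (SE 0.13, FDR = 0.16) was not called and lay near the median of its equals, -0.34. The strongest of its other peaks, chr2:71903301-71904300 at the gene's end, held 7.79 and 9.18 in hypoxia, against 10.9 and 9.34 in normoxia, or a log2 fold change of 0.66 (SE 0.29, FDR = 0.13).

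Ordered by the strongest promoter peak, the log2 fold changes ran from Pfkfb3 (-0.64), Pfkp (-0.62), Pgk1 (-0.54), Ldha (-0.51) and Slc2a1 (-0.41) to Hk2 (-0.35), Slc16a3 (-0.34), Pdk1 (-0.27), Aldoa (-0.19) and Eno1 (-0.17). No neighbours in this order differed by more than 2 standard errors of their difference. The ends of the order were picked for being the ends, so their distance is a description: 0.47 (SE 0.16) between Pfkfb3 and Eno1. Within a library, where its scaling factor cancels, the Pfkfb3 peak stood at 1.71 and 1.896 times the Eno1 peak under hypoxia. Under normoxia it stood at 1.26 and 1.34 times the Eno1 peak. Summed over all peaks of a gene, the deposited value in normoxia was 49.0% of that in hypoxia for Pfkfb3, 50.5% for Pgk1 and 51.6% for Pfkp. It was 77.3% for Eno1 at the other end. These sums are not scaled, and values as deposited were lower in normoxia across the genome. The median log2 fold change as deposited was -0.44 over all peaks and -0.73 over all promoter peaks. Response element cores in these peaks stood at 3.88 per kb for Pfkfb3 and 4.21 for Pfkp, at 7.5 for Pdk1 and 3.70 for Eno1, and at 0 in the called Ldha peak.

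**Figure D4:**
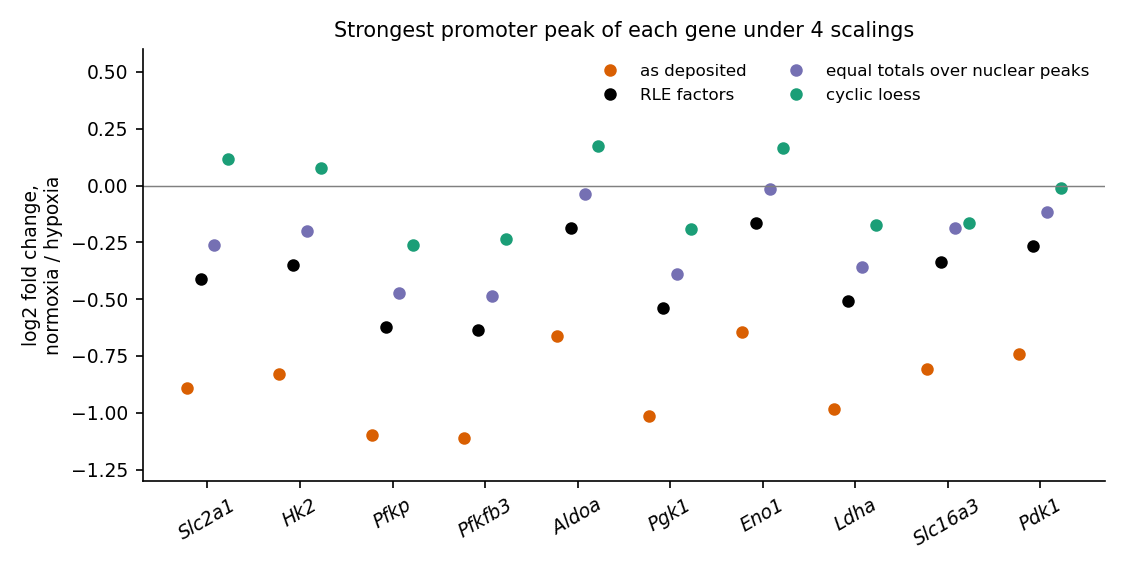
Log2 fold change of normoxia over hypoxia (vertical axis) of the strongest promoter peak of each gene under 4 scalings. All 10 points are below 0 as deposited, with RLE factors and with equal totals over nuclear peaks, and 4 of 10 lie above 0 with cyclic loess.

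Away from the promoters, 3 of 40 other peaks were called lower (7.5%, background 2.64%) and 1 was called higher, and by unadjusted p under 0.05 the counts were 14 lower and 4 higher (background 12.5% and 13.9%). The authors' peak model assigned 8 of the 40 to hypoxia alone, beside 6.87% of all peaks away from promoters. The direction of these 8 is no independent result, and they enter the unadjusted counts and the median below. The 3 that fell lay in Hk2, Pfkp and Pfkfb3 and are described above with the Eno1 peak that rose. Among 500 other peaks nearest in mean value to each, 40.8% were called lower for the Hk2 peak, 13.6% for Pfkp and 21.6% for Pfkfb3. Over all 40 the median of this share was 0.9%. Of these equals, 45.4% fell below the Hk2 peak, 5.6% below the Pfkp peak and 14.8% below the Pfkfb3 peak. The Hk2 peak, with a mean value of 477, was matched only loosely, as its equals ranged from 214 to 1009. The median log2 fold change of the 40 was -0.21, beside 0.05 over all peaks away from promoters, and among the 28 with a mean value of at least 5 it was -0.03. The other 12 have a mean value under 5 and hold few reads. Without normoxia replicate 1 the medians of promoter and other peaks were -0.35 and -0.37. With cyclic loess 2 of the 40 were called lower and 1 higher (background 1.19% and 1.45%). Those lower were Pfkp chr13:6618701-6619100 (-1.35, FDR = 0.00919) and Pfkfb3 chr2:11512301-11512900 (-1.46, FDR = 0.00395), and both are named after their values were seen. The authors' peak model assigned this Pfkfb3 region to hypoxia alone, so its direction is no independent result. The Pfkp peak had 10.97 and 12.9 in hypoxia, against 3.37 and 3.34 in normoxia. The Pfkfb3 peak had 12.7 and 18.0 against 5.62 and 3.00. These are thus weak regions with a large fold, in contrast to the strong ones called after RLE scaling. The authors' peak model assigned 47 of the 56 peaks to both conditions, 9 to hypoxia alone, where 6.84% of all peaks were, and 0 to normoxia alone. The 9 hypoxia-only regions were 100 to 600 bp wide, each touched a shared peak, and 0 were called in the analysis reported. The widest is the Pfkfb3 region that was called lower with cyclic loess. The 9 regions held 2 to 53 reads in the hypoxia libraries and 0 to 15 in the normoxia libraries.

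**Figure D5:**
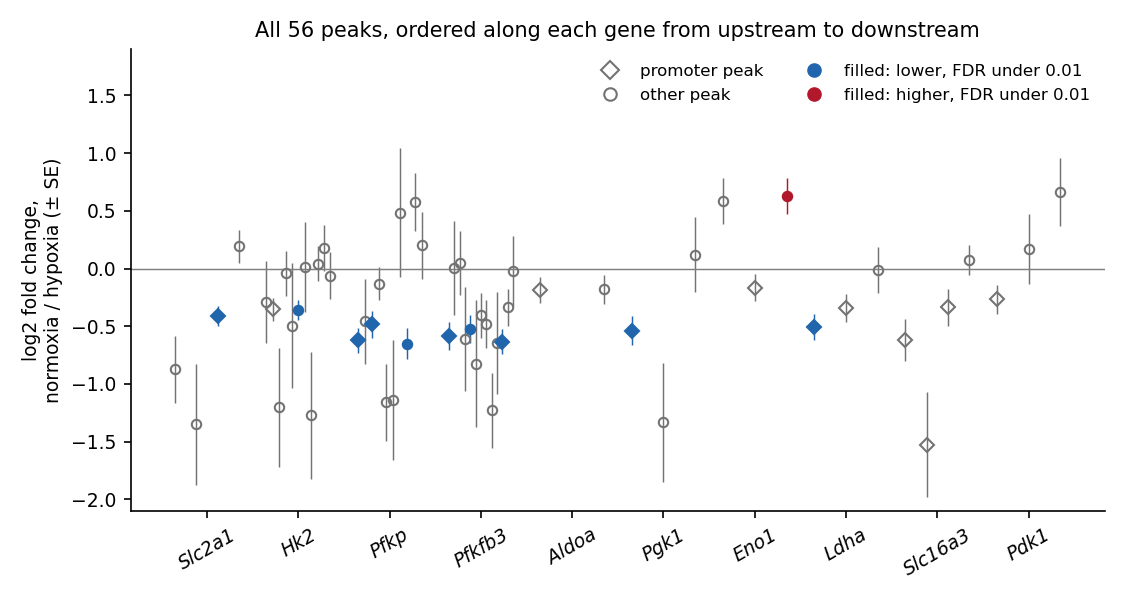
Log2 fold change of normoxia over hypoxia after RLE scaling (vertical axis, ± SE) of all 56 peaks, grouped by gene and ordered from upstream to downstream within each gene. Diamonds are promoter peaks and circles all others, and filled symbols mark the 10 called lower and the 1 called higher.

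As a share of the signal in all promoter peaks, in which a library's scaling factor cancels, the 15 promoter peaks held 0.181 and 0.184% in hypoxia. In normoxia they held 0.167 and 0.170%. The 40 other peaks held 0.0573 and 0.0557% of the signal of all peaks away from promoters in hypoxia and 0.0511 and 0.0502% in normoxia. Both shares were lower in both normoxia libraries, by a small margin. A trend with value does not cancel in such shares. The 15 promoter peaks had a median deposited value of 168, beside 62.6 for all promoter peaks. Shares of peaks of equal value were not taken.

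Other genes of the pathway were read at their promoters, where 16.7% of all peaks were called lower. Among 25 other genes of glucose uptake and glycolysis with a promoter peak, 8 of 33 promoter peaks were called lower and 1 higher, with a median of -0.28. The lowest p-values belonged to Pfkfb2 (-0.80, SE 0.12, FDR = 5.0e-05) and Pfkfb1 (-0.93, SE 0.16, FDR = 0.000245), which make and break down fructose 2,6-bisphosphate like Pfkfb3, and to Pdk4 (-0.62, SE 0.12) and Pdk3 (-0.73, SE 0.14), relatives of Pdk1. The Pfkfb2 peak went from 272 and 292 to 96.3 and 139, and the Pfkfb1 peak from 74.0 and 76.5 to 24.7 and 31.4. The Pfkfb2 and Pfkfb1 calls were also made with cyclic loess (FDR = 0.00548 and 0.00109), those of Pdk4 and Pdk3 were not (FDR = 0.070 and 0.0135), and the median of the 33 was then -0.058. The third peak called lower with cyclic loess was at Slc2a3, a neuronal-type glucose transporter (FDR = 0.00488), named after its values were seen. The peak that rose, named here after its values were seen, was at Hk3, a hexokinase found mainly in blood cells, with 6.37 and 7.48 in hypoxia and 13.1 and 11.3 in normoxia (1.17, SE 0.29, FDR = 0.00678). It was not called as deposited (FDR = 0.051) or with cyclic loess (FDR = 0.0444).

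Of 18 other HIF targets, 6 of 20 promoter peaks were called lower and 0 higher, with a median of -0.35. Those with the lowest p-values were Bhlhe40, a transcriptional repressor (-0.64, SE 0.09), Mxi1, a MYC antagonist (-0.56, SE 0.10), Ndrg1, a stress-response gene (-0.45, SE 0.10), and Bnip3, which acts in the removal of mitochondria (-0.57, SE 0.13). By unadjusted p under 0.05 the count was 14 lower and 0 higher, where 44.1% of all promoter peaks were lower. With cyclic loess 0 of the 20 were called and the median was 0.012.

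Genes of pyruvate entry and the citrate cycle, which HIFs are not known for raising, gave 7 of 23 promoter peaks called lower and 0 higher in 21 genes, with a median of -0.42. Fh1, fumarate hydratase (-0.64, SE 0.10), Mpc2, a subunit of the mitochondrial pyruvate carrier (-0.53, SE 0.10), Idh3a, a subunit of isocitrate dehydrogenase (-0.56, SE 0.13), and Dlat, a subunit of pyruvate dehydrogenase (-0.58, SE 0.14), had the lowest p-values. By unadjusted p under 0.05, 17 were lower and 0 higher, beside the same 44.1%, and with cyclic loess 1 was called lower and the median was -0.11. Beside the median of -0.48 in the 10 genes' own promoter peaks and 46.7% called lower, the 3 lists had 24.2, 30.0 and 30.4% called lower. Among promoter peaks equal in value to the 10 genes' promoter peaks, a median of 41.8% were called lower. No share of equal value was taken for the lists, and whether any list differed from another was not tested.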

How the data were processed

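ATAC-seq was analysed in 2 hypoxia and 2 normoxia libraries, grouped by the oxygen level in the labels. Per the study's methods, the authors aligned reads to mm10 with bowtie2, removed duplicates with Picard, and called 1 peak set over both groups with chromstaR. The deposited values, named RPKM by the authors, are a signal that is not divided by peak width: 100% of values were whole multiples (within 0.01 of a read) of 1 read per 10000000 library reads, so reads were recovered from them. Median peaks held 33 to 48 reads. Whether these count fragments or overlapping bins is not known, so no counting interval is given. No sample column was left unused.

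Values were scaled by RLE factors (1.13 and 1.23 in hypoxia, 0.81 and 0.89 in normoxia) and log2(value + 1) was fitted with limma 3.58.1 in R 4.3.3 (eBayes with trend and robust, two-sided, Benjamini-Hochberg over 128055 peaks, FDR under 0.01). edgeR 4.0.16 on the recovered reads, the tool named in the study's methods, was an alternative. Peaks of equal value were the 500 promoter peaks outside the 10 genes nearest in log2 mean value. For an other peak they were the 500 nearest other peaks. They describe the table and are not a test. Sequences were read with samtools 1.23.1.

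Named are the 10 genes with all promoter peaks, their called peaks and the strongest other peak of each gene, and at most 4 called peaks per list by lowest p. Some genes of the comparison lists are not reported here. The members, lists and tests were chosen with earlier results of these data known. The annotation has a second Aldoa entry, and the one that matches RefSeq was used. The methods give 2 independent experiments, but p-values from 2 libraries a group rest on a spread that limma shares between peaks, and an exact permutation test of 2 against 2 cannot go below p = 0.333. Since sorted cells were parted between the groups, a hypoxia and a normoxia library may come from the same sort. The labels do not state which libraries do. Same-numbered libraries did not deviate together (correlation 0.011 over all peaks), and the numbers were not used as pairs in the analysis reported.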

Additional observations from a re-analysis of the deposited data

How the results depend on the processing

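Direction and calls at these genes rest on the scaling and on the pooled spread. Counts of peaks called lower are given in the order all member peaks, promoter peaks, strongest promoter peaks, other peaks, other glycolysis genes, other HIF targets, and pyruvate and citrate cycle genes, and were 10, 7, 5, 3, 8, 6 and 7 in the analysis reported. They were 26, 15, 10, 10, 22, 15 and 21 as deposited (median of all peaks -0.44), 4, 3, 2, 1, 6, 2 and 2 with equal totals over nuclear peaks (median of all peaks 0.13), 0, 0, 0, 0, 1, 0 and 0 with quantile normalization, and 2, 0, 0, 2, 3, 0 and 1 with cyclic loess. Without trend and robust estimation all 7 counts were 0, as was the count over all peaks, while 29293 peaks had an unadjusted p under 0.05. At an FDR under 0.05 they were 16, 10, 6, 6, 12, 10 and 13. edgeR on recovered reads gave 11, 7, 5, 4, 9, 6 and 10 with RLE and 10, 7, 5, 3, 8, 6 and 8 with TMM. Leaving out 1 library, the lowest were 0 throughout and the highest were 12, 9, 6, 3, 11, 8 and 11. The labels number the libraries 1 and 2 in both groups. With this number as a replicate block they were 13, 8, 5, 5, 9, 6 and 11, and of the single peaks followed, Slc16a3 chr11:120947901-120950100 (FDR = 0.00743), Pfkp chr13:6618701-6619100 (FDR = 0.00919) and Pfkfb3 chr2:11512301-11512900 (FDR = 0.00212) gained a call and no other call changed. This Pfkfb3 region is a hypoxia-only one in the authors' peak model, so its direction is no independent result.

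The member count called higher, 1, was 0 as deposited, 0 without trend and robust estimation, 0 for the gene body with no flanks, 2 at an FDR under 0.05, and 0 to 1 with a library left out. The other glycolysis peak called higher was lost (0) as deposited, with quantile normalization, cyclic loess, a pseudocount of 0.1 and both changes to eBayes, and ran from 0 to 1 with a library left out. No promoter peak of the 10 genes, of the other HIF targets or of the citrate cycle genes was called higher under any setting in which the count was made.

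The median of the promoter peaks, -0.48, was -0.96 as deposited, -0.33 with equal totals, -0.17 with quantile normalization, -0.16 with cyclic loess, and -0.49 to -0.35 with a library left out. That of the other peaks, -0.21, was -0.65, -0.073, -0.12 and -0.13 under the same scalings, -0.13 with a pseudocount of 5, -0.031 at a mean value of at least 5, -0.36 without flanks, -0.31 with a promoter window of 2000 bp, and -0.37 to -0.11 with a library left out. Their difference, -0.27, was -0.051 with quantile normalization and -0.031 with cyclic loess, and ran from -0.35 to 0.015 with a library left out, where 0.015 is without normoxia replicate 1. The distance from promoter peaks of equal value stayed between -0.09 and -0.02, with 5 or 6 of 10 below.

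Of 431 single-peak results under an alternative, 322 kept direction and call, 66 lost and 22 gained a call, and 21 reversed. None of those that reversed was called after reversing. With cyclic loess and quantile normalization in turn, the values were 0.077 and 0.017 for the Hk2 promoter, 0.17 and 0.17 for Aldoa, 0.17 and 0.17 for Eno1, 0.086 and 0.098 for Ppp4c, and -0.091 and -0.083 for the peak past Pgk1. With cyclic loess alone they were 0.12 for Slc2a1 and 0.14 for the broad Hk2 peak. As deposited they were -0.30 past Pgk1, -0.40 at the end of Slc16a3 and -0.28 at the end of Slc2a1. The peak past Ldha gave 0.13 with equal totals, -0.18 to 0.17 with a library left out and 0.0032 in edgeR with TMM. The peak past Pgk1 gave -0.11 to 0.36 with a library left out, and that at the end of Slc16a3 -0.018 to 0.17 (below 0 without hypoxia replicate 2 and without normoxia replicate 1). With 2 libraries a group and peaks that hold few reads, small fold changes at the weak peaks cannot be resolved, and the cause of each change with scaling was not tested.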
